A study of Mus musculus with 6 samples.

Results

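A set of 10 genes of the NRF2 antioxidant and glutathione programme was followed in RNA from mouse T cells that had shared a culture with ID8, an ovarian cancer line of mouse origin. They were taken by gene name from the deposited table, and all 10 were found among its 54532 genes. NRF2, encoded by Nfe2l2, is a transcription factor that is held in the cytoplasm and marked for degradation by KEAP1. When oxidants or electrophiles modify KEAP1, NRF2 enters the nucleus, pairs with a small MAF protein at antioxidant response elements and drives genes that make glutathione, recycle it, supply NADPH and detoxify quinones and haem. In T cells glutathione is needed for growth after activation, and in tumour cells the same programme is known for buffering platinum drugs, which react with thiols.

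The cisplatin group held 3 libraries of T cells co-cultured with ID8 cells that had been pretreated with cisplatin at 40 µM. The control group held 3 libraries of T cells co-cultured with ID8 cells given PBS. In both groups the T cells were splenic T cells of C57BL/6 mice isolated with a pan T-cell kit, kept in IL-2 and pre-activated with anti-CD3/CD28 beads, and they were collected after co-culture with no sort described. The labels give cisplatin or PBS as the treatment of the T-cell libraries, and that the drug was given to the ID8 cells before co-culture is taken from the study's account of the experiment. The labels do not say whether the libraries of a group came from separate mice, so the p-values measure the spread between these libraries, which may be technical.

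The T-cell label and the other cells that the wells could hold were checked first. All 21 T-cell markers were tested and passed as higher with cisplatin, and their summed level was 3092 to 3164 FPKM (fragments scaled by gene length and by library size) in the cisplatin and 1955 to 2083 FPKM in the control libraries. The defining gene Cd3e had 39.7 ± 0.143 and 31.9 ± 0.700 FPKM (SD, n = 3 each). ID8 transcripts were also present. The 19 ID8 markers summed to 240.4 to 247 FPKM in the cisplatin and 1617 to 1695 FPKM in the control libraries, and 16 of the 17 tested passed as lower, with a median log2 fold change of -2.34. Krt19, a keratin, had 52.9 ± 1.46 FPKM with cisplatin and 646 ± 18.1 FPKM in control (SD, n = 3 each). The 8 B-cell markers summed to 395 to 424 and 264 to 279 FPKM, and all 8 passed as higher (Cd79a, 121 ± 7.66 and 92.6 ± 4.77 FPKM). The 14 myeloid markers summed to 124 to 142 and 66.4 to 71.95 FPKM, and 7 of the 9 tested passed as higher and 1 as lower (Csf1r, 4.005 ± 0.513 and 1.51 ± 0.148 FPKM). The 6 erythroid markers summed to 4.001 to 5.82 and 4.35 to 8.86 FPKM, with Alas2 at means of 0.366 and 0.187 FPKM, and the 2 tested genes had log2 fold changes of -0.61 and -0.49 that did not pass (adjusted p = 0.081 and 0.39). In such bulk RNA a smaller number of cells of a type and a smaller amount of RNA per cell cannot be told apart. The part of the ID8, B-cell and myeloid RNA in the results below was not tested, and no library of ID8 cells alone was analysed here.

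In these libraries 9 of the 10 genes fell with cisplatin-pretreated ID8 cells, and the remaining gene, Gclc, did not pass in either direction. Groups were compared by limma on log2(FPKM + 0.1), a scale that understates the change of low genes. A gene passed at a Benjamini-Hochberg adjusted p-value under 0.05 over the 15874 genes tested, and it was called when its fold change was also at least 2. Of all genes tested, 29.0% passed as lower and 27.5% as higher. The call of at least 2-fold was met by 5 of the 10 genes, all lower, against 12.8% of all genes tested in that direction. None of the 10 was called or passed as higher by limma, with voom or at an unadjusted p under 0.05, since all 10 log2 fold changes were below 0 and that of Gclc with voom, the only one above, did not pass. Among all genes tested 4.11% were called higher. The 3 cisplatin libraries lay below all 3 control libraries for 9 of the genes, and for 32.3% of all genes tested. The median log2 fold change was -0.83 over the 10 genes and 0.03 over all genes tested. All 10 genes passed the minimum of 0.5 FPKM. Their rebuilt reads ran from 110 to 7069 in a library, and the widest relative spread within a group was that of Nqo1 with cisplatin, at 2.40 ± 0.359 FPKM (SD, n = 3).

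**Figure D1:**
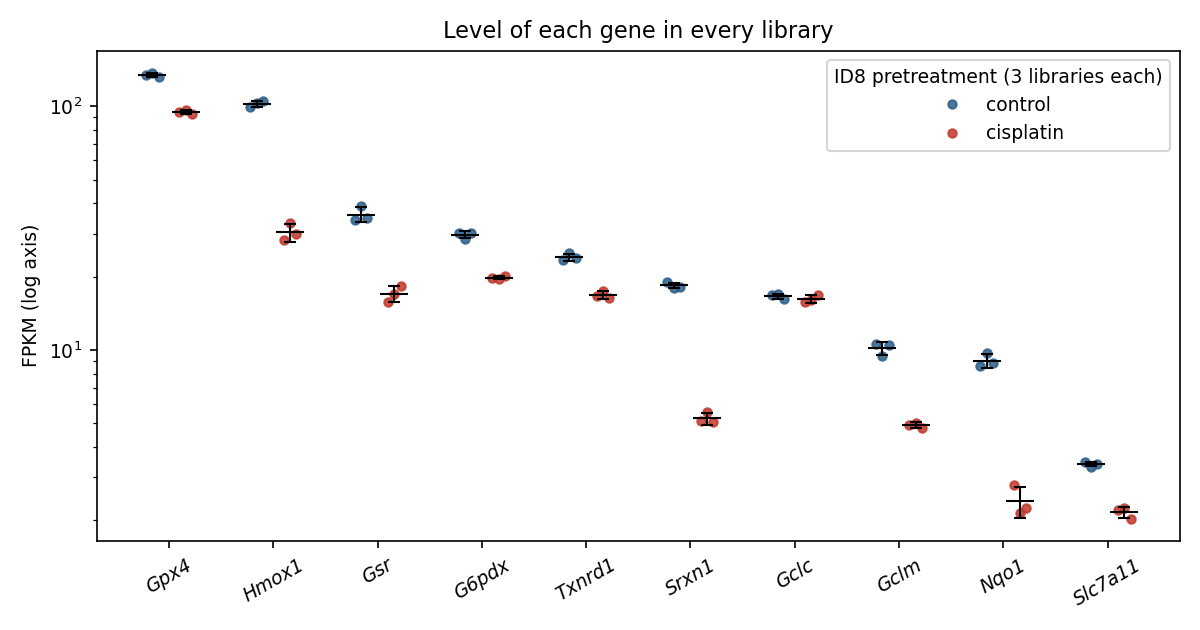
FPKM (log axis) of each of the 10 genes in every library, ordered by the control mean, with 3 control (blue) and 3 cisplatin (red) libraries per gene; black bars are the mean ± SD. Each gene but Gclc, at 16.6 FPKM in control and 16.2 FPKM with cisplatin, has its red points below its blue points.

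The 3 genes that fell most were the detoxifying enzymes Nqo1 and Hmox1 and the peroxiredoxin repair enzyme Srxn1. Nqo1 (ENSMUSG00000003849, chromosome 8 from 107388225 to 107403206, GRCm38) encodes the quinone reductase that is widely used as a readout of NRF2. It had 2.81, 2.14 and 2.25 FPKM in the cisplatin libraries and 8.60, 9.69 and 8.81 FPKM in the control libraries. The groups were well apart, and the control mean was 3.77 times the cisplatin mean (log2 fold change -1.88, standard error 0.11, adjusted p = 1.5e-05). Nqo1 was also the gene with the fewest reads, 121 rebuilt reads on average in a cisplatin library.

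Hmox1 (ENSMUSG00000005413, chromosome 8 from 75093621 to 75100589) encodes haem oxygenase, which breaks haem into biliverdin, iron and carbon monoxide. It had 28.2, 33.2 and 29.8 FPKM with cisplatin and 99.1, 103 and 105 FPKM in control. In the control libraries it was the second most abundant of the 10 genes, and its control mean was 3.37 times its cisplatin mean (log2 fold change -1.75, standard error 0.06, adjusted p = 1.5e-06). Macrophages are known for high Hmox1, and 7 of the 9 tested myeloid markers passed in the opposite direction to it. The part of myeloid cells in the value of Hmox1 was not tested. The constitutive haem oxygenase, Hmox2, had a mean of 13.4 FPKM in both groups and did not pass (adjusted p = 0.99), although it passed as lower (log2 fold change -0.58) after centring on the T-cell markers.

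Srxn1 (ENSMUSG00000032802, chromosome 2 from 152105516 to 152111376) encodes sulfiredoxin, which restores overoxidised peroxiredoxins. It had 5.09, 5.59 and 5.04 FPKM with cisplatin and 19.0, 18.0 and 18.2 FPKM in control, so the lowest control library was above the highest cisplatin library by a wide margin. The control mean was 3.51 times the cisplatin mean (log2 fold change -1.79, standard error 0.05, adjusted p = 7.6e-07). Among the 7 genes with a promoter window Srxn1 held the most matches to the core letters of the antioxidant response element, and Gclm, described next, held a single match. Their promoters are shown for that reason, as the 250 bases before the RefSeq start (GRCm38.p6, plus strand, chr2:152105274-152105523 for Srxn1 and chr3:122245307-122245556 for Gclm), with the matches in capitals.
Srxn1: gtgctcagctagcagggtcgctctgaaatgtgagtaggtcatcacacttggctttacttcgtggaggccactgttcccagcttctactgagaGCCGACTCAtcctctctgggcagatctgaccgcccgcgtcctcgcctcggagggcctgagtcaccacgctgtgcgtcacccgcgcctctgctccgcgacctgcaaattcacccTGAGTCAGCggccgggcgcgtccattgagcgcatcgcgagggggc
Gclm: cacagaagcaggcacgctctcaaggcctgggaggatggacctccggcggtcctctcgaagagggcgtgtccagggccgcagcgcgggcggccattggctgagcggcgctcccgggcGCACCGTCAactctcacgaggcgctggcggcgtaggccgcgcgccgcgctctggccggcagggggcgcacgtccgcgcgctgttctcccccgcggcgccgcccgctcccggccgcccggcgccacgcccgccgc

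The motifs searched were TGACNNNGC and TGAGNNNGC on both strands, in the window of 250 bases before to 50 bases after each RefSeq start. In Srxn1 the match TGAGTCAGC lies on the plus strand and starts 45 bases before the start site, and it also holds TGAGTCA, the letters of an AP-1 site. A match on the minus strand, printed above as its plus-strand letters, starts 158 bases before the start site, and another, to TGACNNNGC, lies after the start site and is not printed. In Gclm the match, to TGACNNNGC on the minus strand, starts 134 bases before the start site. Windows were held for 7 of the 10 genes, and 5 of these 7 (Srxn1, Gclm, Slc7a11, Txnrd1 and G6pdx) had a match in at least 1 of their windows. Nqo1 and Gpx4 had none in theirs. Counted by window, 5 of the 12 windows of these genes and 27.8% of all 32851 promoter windows held a match (12.4% for TGACNNNGC and 17.6% for TGAGNNNGC). These matches describe the letters only.

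The genes of glutathione synthesis did not move together. Gclc and Gclm encode the catalytic and the modifier subunit of glutamate-cysteine ligase, the rate-limiting enzyme of glutathione synthesis. Gclc (ENSMUSG00000032350, chromosome 9 from 77754535 to 77794485) had 15.7, 16.1 and 16.9 FPKM with cisplatin and 16.8, 17.0 and 16.2 FPKM in control, and the groups overlapped. Its log2 fold change was -0.04 (95% confidence interval -0.14 to 0.06, adjusted p = 0.48), and 45.2% of the tested genes had a lower value. Its sign turned under quantile normalization (0.07) and in limma's voom on rebuilt reads (0.05).

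Gclm (ENSMUSG00000028124, chromosome 3 from 122245557 to 122270732) had 4.93, 5.04 and 4.78 FPKM with cisplatin and 10.6, 9.48 and 10.5 FPKM in control. It fell by 1.04 on the log2 scale (standard error 0.06, adjusted p = 1.4e-05). As a ratio within each library, which does not depend on the scaling between libraries, Gclc was 3.19, 3.19 and 3.53 times Gclm with cisplatin and 1.58, 1.79 and 1.54 times Gclm in control. The groups did not overlap, and the log2 ratio was 1.72 ± 0.0852 with cisplatin and 0.71 ± 0.115 in control (SD, n = 3 each, difference 1.01, two-sided exact permutation test p = 0.1, the smallest that 3 libraries against 3 allow). Gclm overlaps Gm17494 on the other strand and Gm6061 on the same strand, and both averaged below 0.05 FPKM in each group.

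Slc7a11 (ENSMUSG00000027737, chromosome 3 from 49892526 to 50443614) encodes the light chain of the cystine importer that supplies cysteine for glutathione. It was the lowest of the 10 genes, with 2.20, 2.25 and 2.03 FPKM with cisplatin and 3.47, 3.33 and 3.42 FPKM in control. The groups did not overlap (log2 fold change -0.63, standard error 0.08, adjusted p = 6.2e-04). Its partner chain Slc3a2, named after its values were seen, had 41.6 ± 1.56 and 34.6 ± 0.558 FPKM (SD, n = 3 each), higher by a log2 fold change of 0.27 (adjusted p = 9.0e-04) that was -0.31 after centring on the T-cell markers.

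Gsr and Gpx4, which recycle and use glutathione, both fell, by different amounts. Gsr (ENSMUSG00000031584, chromosome 8 from 33652523 to 33698163) encodes glutathione reductase, which regenerates reduced glutathione with NADPH. It had 15.7, 17.0 and 18.4 FPKM with cisplatin and 34.3, 38.9 and 34.6 FPKM in control, with all cisplatin libraries far below the control libraries (log2 fold change -1.07, standard error 0.07, adjusted p = 2.9e-05). Gpx4 (ENSMUSG00000075706, chromosome 10 from 80047166 to 80056439) encodes the selenoenzyme that reduces lipid peroxides and holds back ferroptosis. It was the most abundant of the 10 genes, with 94.6, 96.8 and 92.8 FPKM with cisplatin and 134, 137 and 132 FPKM in control (log2 fold change -0.50, standard error 0.03, adjusted p = 1.5e-05). The pseudogene copy Gpx4-ps2 is listed with 28.5 ± 1.18 and 44.5 ± 0.981 FPKM (SD, n = 3 each), so reads may be split between the copies and the level of Gpx4 is uncertain.

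Txnrd1 and G6pdx fell by amounts close to that of Gpx4. Txnrd1 (ENSMUSG00000020250, chromosome 10 from 82833951 to 82897712) encodes the cytosolic thioredoxin reductase, also a selenoenzyme, and ranged from 16.4 to 17.5 FPKM with cisplatin and from 23.4 to 24.9 FPKM in control (log2 fold change -0.51, standard error 0.04, adjusted p = 7.8e-05). G6pdx (ENSMUSG00000031400, chromosome X from 74409483 to 74429194) encodes glucose-6-phosphate dehydrogenase, which makes NADPH at the entry of the pentose phosphate pathway. It ranged from 19.5 to 20.1 FPKM with cisplatin and from 28.5 to 30.3 FPKM in control (log2 fold change -0.58, standard error 0.04, adjusted p = 2.0e-05). It shares 418 exonic bases with Ikbkg on the other strand, which had 12.1 ± 0.418 and 21.7 ± 1.37 FPKM (SD, n = 3 each), and since no strand setting is stated its value is uncertain. Within a library Srxn1 stood at 0.723 to 0.812 of the level of Txnrd1 in control and at 0.307 to 0.319 with cisplatin.

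**Figure D2:**
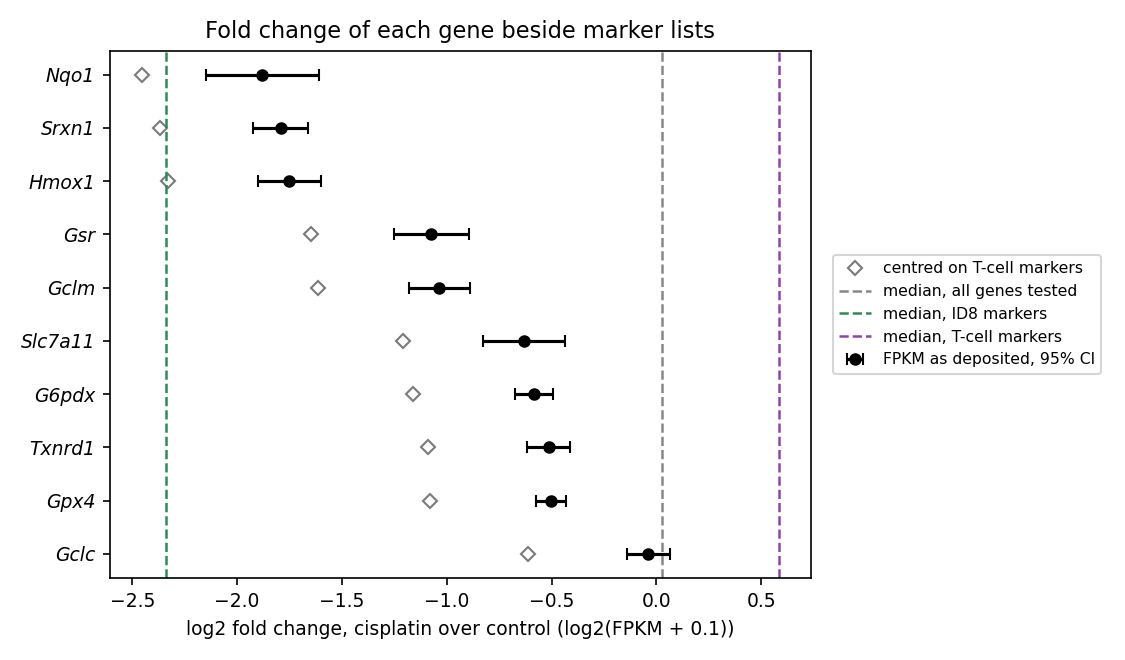
Log2 fold change (cisplatin over control, log2(FPKM + 0.1)) of each gene on the FPKM as deposited (black points, bars are 95% confidence intervals) and after centring each library on the T-cell markers (open diamonds). Dashed lines mark the median of all genes tested (0.03), of the T-cell markers (0.59) and of the ID8 markers (-2.34), and the genes lie between Nqo1 at -1.88 and Gclc at -0.04.

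The scaling between libraries set the size of these values but not the direction of the 9 genes that passed. Centring each library on the T-cell markers, which assumes that these did not change, moved the median of all genes by -0.58 and quantile normalization moved it by 0.13. On the centred scale all 10 genes passed as lower, Gclc included (log2 fold change -0.61, adjusted p = 2.5e-05), where 66.1% of all genes tested did so. Relative to the median of all genes, Gclc stood at -0.07 and Nqo1 at -1.91 on both scales. That equality is fixed by construction, since the centring shifts every gene of a library alike. Under the centring 9 of the genes were called, against 23.6% of all genes tested.

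The order of the levels, which FPKM allows to be compared between genes, differed between the groups. In control it ran from Gpx4 and Hmox1 through Gsr, G6pdx, Txnrd1, Srxn1, Gclc and Gclm to Nqo1 and Slc7a11, and among neighbours only Gclm and Nqo1 had overlapping ranges. The control mean of Gpx4 was 39.4 times that of Slc7a11. With cisplatin Gpx4 and Hmox1 again led, followed by G6pdx. Gsr, Txnrd1 and Gclc came next, at 17.0, 16.8 and 16.2 FPKM, with ranges that overlapped from each to the next. Srxn1, which stood above Gclc in control, followed at 5.24 FPKM and Gclm at 4.92 FPKM, with ranges that only just failed to meet (5.044 against 5.041 FPKM), and Nqo1 and Slc7a11 overlapped at the bottom.

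The regulators of the pathway were lower as well. Of all genes tested, 29.0% passed as lower and 27.5% as higher. Of 12 regulators tested, 11 passed as lower and 1 as higher, with a median log2 fold change of -0.42. Under quantile normalization and with voom 9 passed as lower, since Cul3 and Rbx1 did not pass there. Nfe2l2 itself had 28.7 ± 0.130 FPKM with cisplatin and 44.3 ± 0.807 FPKM in control (SD, n = 3 each), and its log2 fold change was -0.62 (adjusted p = 4.7e-06). Keap1, its inhibitor, fell by 0.40 on the log2 scale (adjusted p = 1.9e-04). Sqstm1, which sequesters KEAP1, had a log2 fold change of -0.47, the small MAF gene Mafg of -0.44 and Bach1, a repressor that competes at the same elements, of -0.37. The largest falls were those of Nfe2l3, a relative of Nfe2l2, from 8.79 ± 0.745 to 1.67 ± 0.382 FPKM, and of the small MAF gene Maff, from 27.4 ± 1.01 to 7.18 ± 0.327 FPKM (SD, n = 3 each). Nfe2l1 had a log2 fold change of -0.79. The regulator that rose, named after its values were seen, was Bach2, a transcriptional repressor expressed in lymphocytes. It went from 13.7 ± 0.159 to 21.2 ± 0.782 FPKM (log2 fold change 0.62, adjusted p = 2.0e-05), and the log2 fold change was 0.04 after centring on the T-cell markers.

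Set against Nfe2l2 in the same library, the 10 genes differed in direction. Hmox1 stood at 2.23, 2.29 and 2.41 times Nfe2l2 in control and at 0.985, 1.15 and 1.03 times Nfe2l2 with cisplatin. Nqo1, Srxn1, Gsr and Gclm were also lower relative to Nfe2l2 in every cisplatin library, with differences of the mean log2 ratio of -1.30, -1.19, -0.45 and -0.42. The ratios of G6pdx and Slc7a11 to Nfe2l2 overlapped between the groups, with differences of 0.04 and -0.03. Gpx4, Txnrd1 and Gclc were higher relative to Nfe2l2 in every cisplatin library, by 0.12, 0.11 and 0.59 on the log2 scale. These ratios are descriptions with 3 libraries a group and were not tested.

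**Figure D3:**
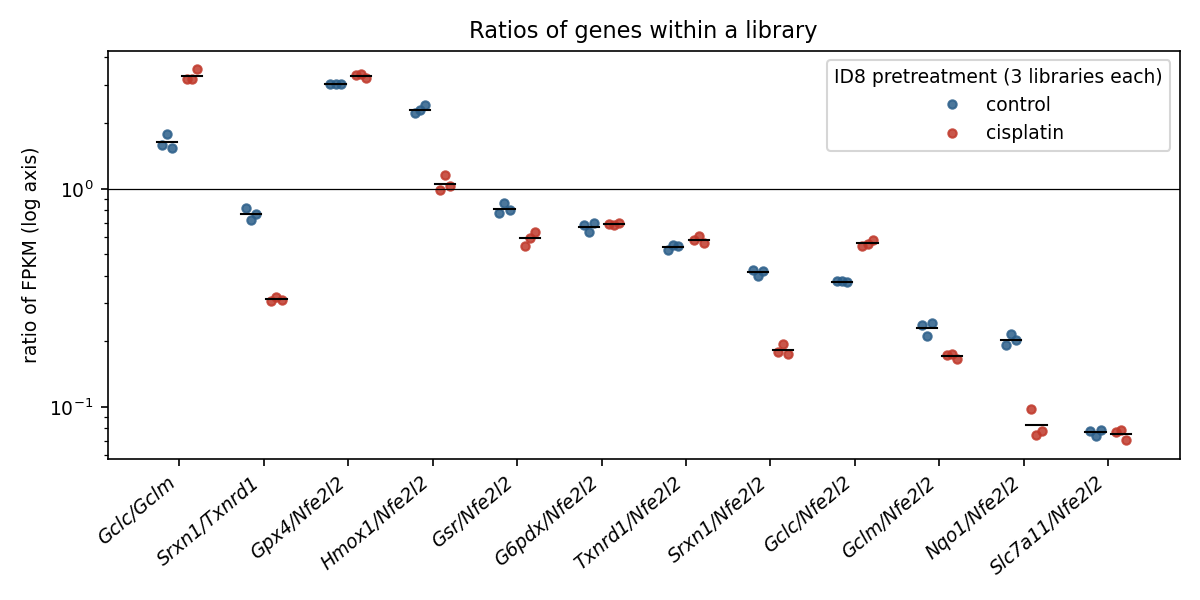
Ratio of the FPKM of gene pairs within each library (log axis), with 3 control (blue) and 3 cisplatin (red) libraries per pair; black bars are means of the log ratios. Gclc over Gclm is higher with cisplatin in every library, and relative to Nfe2l2 the points of Hmox1, Srxn1 and Nqo1 are lower while those of G6pdx and Slc7a11 overlap.

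Across the other genes of the pathway, 96 of the 106 rows of 8 lists were tested, and 57 passed as lower and 11 as higher, with a median log2 fold change of -0.48. Over all genes tested, 29.0% passed as lower and 27.5% as higher. The number of list genes passing as higher depended on the scaling, with 19 under quantile normalization, 18 with voom and 0 after centring on the T-cell markers, which lowers every gene alike. The thioredoxin and peroxiredoxin list, which removes peroxides beside glutathione, had 8 of 14 genes lower and 3 higher (median log2 fold change -0.62). Among its genes that reached 5 FPKM in either group, the largest falls were those of thioredoxin Txn1, from 251 ± 8.76 to 107 ± 1.99 FPKM, and of the peroxiredoxins Prdx1, from 103 ± 0.947 to 46.4 ± 0.884 FPKM, and Prdx5, from 95.5 ± 2.49 to 45.3 ± 0.790 FPKM (SD, n = 3 each). Prdx1 is a substrate of sulfiredoxin, the product of Srxn1.

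Of the 10 tested genes that supply NADPH, 7 were lower and 2 higher (median log2 fold change -0.70). Me1, cytosolic malic enzyme, fell from 137 ± 3.57 to 18.9 ± 0.777 FPKM, Idh1, cytosolic isocitrate dehydrogenase, from 28.5 ± 1.70 to 12.3 ± 0.318 FPKM and H6pd, the counterpart of G6pdx in the endoplasmic reticulum, from 20.1 ± 0.873 to 12.1 ± 0.705 FPKM (SD, n = 3 each). The glutathione synthesis, turnover and transport list had 5 of 14 genes lower and 2 higher (median -0.14), against 5 lower and 5 higher under quantile normalization and 12 lower and 0 higher after the centring. Over all genes tested 29.0% passed as lower and 27.5% as higher, and 66.1% passed as lower after the centring. Only the 5 of 14 lower genes on the deposited scale lie near the share over all genes. Oplah, which recycles 5-oxoproline to glutamate, had a log2 fold change of -2.07, Chac2, which degrades glutathione, of -0.88 and Gss, glutathione synthetase, of -0.77 (adjusted p = 1.2e-06, 0.012 and 1.6e-04).

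Of the 20 tested glutathione S-transferases, which attach glutathione to electrophiles, 9 were lower and 2 higher (median -0.44). Under quantile normalization 9 were lower and 4 higher, and after the centring 17 were lower and 0 higher. Over all genes tested 29.0% passed as lower and 27.5% as higher, and 66.1% passed as lower after the centring. Gsto2 had a log2 fold change of -3.22, Gsta1 of -2.98 and the microsomal Mgst1 of -2.82. The control level was highest for Mgst1 among these, at 59.8 ± 2.53 FPKM against 8.35 ± 0.224 FPKM with cisplatin (SD, n = 3 each), and reads of Gsta1 can be shared with its close copy Gsta2. Among the 4 tested glutathione peroxidases beside Gpx4, Gpx8 of the endoplasmic reticulum passed as lower (log2 fold change -1.75, adjusted p = 3.3e-05), and the abundant Gpx1, at 82.7 ± 3.19 and 86.7 ± 1.31 FPKM (SD, n = 3 each), did not pass (adjusted p = 0.14), although after the centring it passed as lower (log2 fold change -0.65).

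Of the 8 tested haem and iron genes, 6 were lower (median -0.33), where 29.0% of all genes tested passed as lower and 27.5% as higher. No log2 fold change of the list was above 0, although that of Hmox2 was 0.11 under quantile normalization. Fech, which inserts iron into protoporphyrin to form haem, had a log2 fold change of -0.96, the biliverdin reductase Blvrb of -0.63 and the ferritin light chain Ftl1 of -0.35. The ferritin heavy chain Fth1, the most abundant gene of the pathway lists, had a log2 fold change of -0.08 that did not pass (adjusted p = 0.19). Fth1 passed as lower under quantile normalization (log2 fold change -0.30, adjusted p = 6.2e-04) and after the centring (log2 fold change -0.65, adjusted p = 8.4e-06). Of 14 other tested target genes, 10 were lower and 1 higher, with the lowest median of the 8 lists (-0.98). The aldehyde dehydrogenase Aldh3a1 fell from 157 ± 1.008 to 12.8 ± 1.998 FPKM, the UDP-glucose dehydrogenase Ugdh from 26.6 ± 1.37 to 6.67 ± 0.415 FPKM and the ubiquitin ligase Trim16 from 5.50 ± 0.0386 to 1.07 ± 0.0877 FPKM (SD, n = 3 each).

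**Figure D4:**
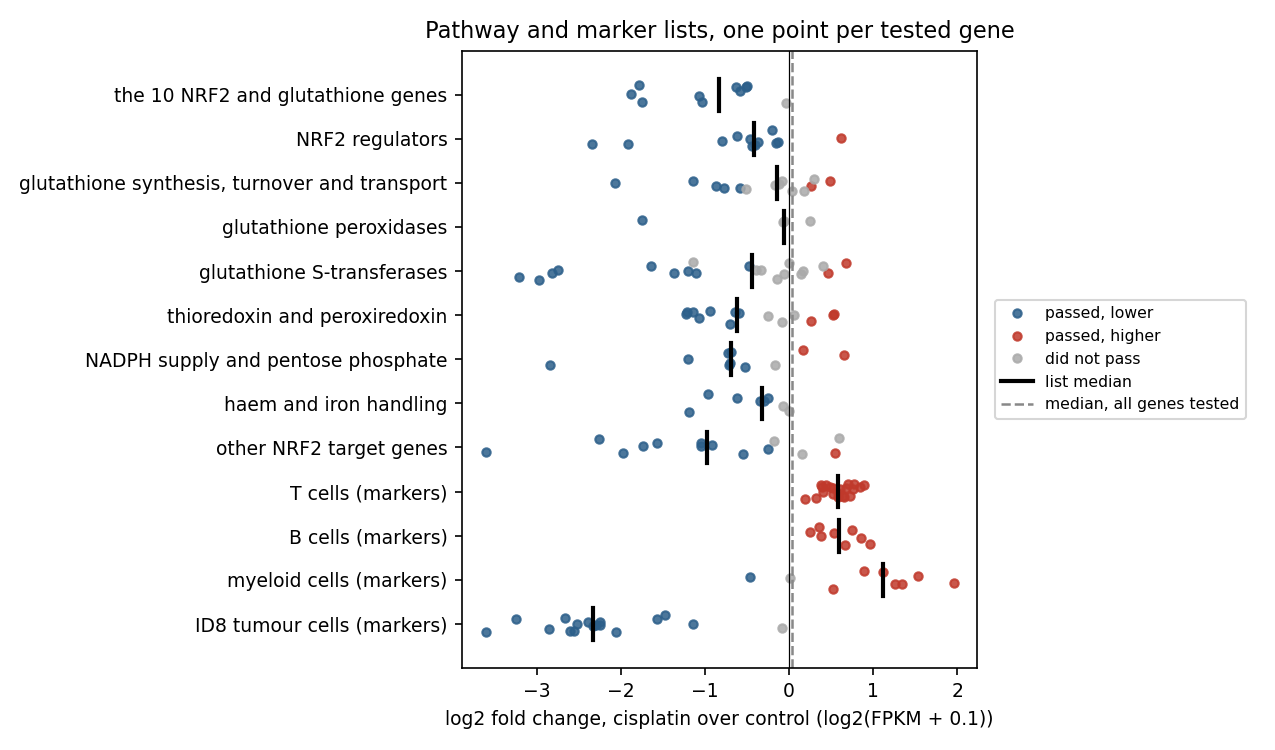
Log2 fold change (cisplatin over control) of every tested gene in the pathway and marker lists, with 1 point per gene coloured by whether it passed at an adjusted p-value under 0.05 by limma; black ticks are list medians and the dashed line is the median of all genes tested. The ID8 markers have the lowest median (-2.34), the T-cell markers lie above 0, and the median of the 10 genes (-0.83) lies between the medians of these 2 marker lists. Single ID8 markers range from -3.61 to -0.08 and overlap the 10 genes.

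The genes whose profile over the 6 libraries was nearest to those of Nqo1, Hmox1 and Slc7a11 were found by the Euclidean distance between log2(FPKM + 0.1) values, each centred on its own mean. Nearest to Nqo1 were Dhrs3, Tspan4 and Fads6 (distances 0.13, 0.15 and 0.16, log2 fold changes -1.82, -1.83 and -1.84). Nearest to Hmox1 were Ahr, Efemp1 and Rad23b (distances 0.10, 0.11 and 0.11, log2 fold changes -1.71, -1.70 and -1.72). Ahr encodes the aryl hydrocarbon receptor. Near to Slc7a11 were Aco1 and Tnks (each at a distance of 0.06, log2 fold changes -0.64 and -0.61). The points share the 6 libraries and the distance is mostly the difference between the groups.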

How the data were processed

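RNA of 6 co-cultured T-cell libraries was sequenced after poly-A selection, and the groups were taken from the treatment given in the sample labels. The authors deposited FPKM values per gene (reads divided by gene length and a library factor). The submitters' processing notes name fastp, HISAT2 2.0.5, featureCounts 1.5.0-p3 and mm10, while the study's methods name LifeScope, and no strand setting is given. Gene coordinates were the same as in GENCODE M21 (GRCm38) for 53499 of 54409 shared genes. Genes whose mean over the libraries reached 0.5 FPKM were tested on log2(FPKM + 0.1) with limma 3.58.1 in R 4.3.3 (lmFit, eBayes with trend) over all 15874 such genes, two-sided, with Benjamini-Hochberg adjustment. The study's own test, DESeq2 on raw counts, was not run because the deposited unit is FPKM, and its thresholds were kept. The values and the gene lengths in the table gave back whole reads (within 0.1) for 100% of values above 0, with 30606569 to 32169496 rebuilt reads a library, and no replicate pair held the same values. These reads cover counting error only. The library factor was 1.030 to 1.049 times the rebuilt reads in the cisplatin libraries and 0.976 to 0.982 times in the control libraries. The deposited scale therefore sets cisplatin values slightly lower against control than a scaling by reads, which voom uses. The members, lists and tests were chosen with earlier results of these data known. Named genes were the 10 members, 5 regulators (Nfe2l2, Keap1, Bach1, Mafg and Sqstm1), up to 3 genes a list with the largest absolute log2 fold change that passed and had at least 5 FPKM in the higher group, the 3 nearest profiles of 3 members (1 of these genes is not reported here), and a defining gene for each marker list. A read simulation that altered 200 of 15848 tested genes had 199 of them called, plus 5 that had been left alone. With so few altered genes it cannot judge the scaling of these data, where 29.0% passed as lower and 27.5% as higher. Recovery of genes close to the 2-fold limit was not tested separately. Alternatives were other scalings, pseudocounts and filters, no trend, limma's voom on rebuilt reads, leaving out each library and the replicate number as a block. Promoters are from RefSeq (GRCm38.p6). Python 3.11.15, pandas 2.3.3, scipy 1.17.1 and matplotlib 3.10.9 were used.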

Additional observations from a re-analysis of the deposited data

How the results depend on the processing

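The 9 genes that passed stayed lower and past the threshold in every alternative in which they were tested (16 each, 15 for Slc7a11, which falls under the stricter filter). Gclc had log2 fold changes of 0.065 under quantile normalization and 0.046 with voom, neither past the threshold. The number of the 10 genes called lower was 5 as reported, 4 at a pseudocount of 1, 3 under quantile normalization and with voom, and 9 after centring on the T-cell markers. Over all genes tested, 1451 of 15874 were called lower at a pseudocount of 1, 1815 of 15874 under quantile normalization and 2423 of 18541 with voom. These shares were 12.8% as reported and 23.6% after the centring. Gsr and Gclm lie close to the 2-fold limit. The other list genes passing as higher numbered 11, and 19 under quantile normalization, 18 with voom and 0 after the centring. Among all genes tested, 2034 were called lower and 653 higher (75.7% lower). These were 3748 and 140 after the centring (96.4% lower), 903 and 242 at a mean of at least 5 FPKM, where fewer genes are tested, 311 higher at a pseudocount of 1 and 1127 higher with voom, and 65.8% were lower under quantile normalization. Leaving out each library gave 1907 to 2083 called lower and 570 to 693 higher, always 9 of the 10 genes passing as lower and 5 called, and 52 to 57 lower and 10 to 12 higher list genes. Of 256 counts of single lists under the alternatives, 238 stayed within 1.5 times the reported count and 18 did not, among them those of the glutathione synthesis and glutathione S-transferase lists under quantile normalization and the centring. Libraries of the same number did not deviate together (correlations of 0.02, -0.06 and -0.02). With 3 libraries a group this cannot decide whether the same number marks a shared mouse or culture, which the labels do not state. With the replicate block 9 of the 10 genes passed as lower, 5 were called, and 2011 lower and 651 higher genes were called among all tested. The lowest count of the 10 genes in a library was 110 rebuilt reads, and 3 libraries a group limit the exact test to p = 0.1.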
